A study of Mus musculus with 4 samples.

Results

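The genes described here are 8 interferon regulatory factors, Irf1, Irf2, Irf3, Irf4, Irf5, Irf7, Irf8 and Irf9, chosen by name as members of 1 family of transcription factors. All 8 were found, each once, among the 21959 genes listed in the count tables of the series. Their levels were read in dendritic cells (DCs) and CD3+ T cells from MC38 tumours, a mouse colon carcinoma line grown in mice. The 4 libraries form 4 groups: DCs from mice given X-Ray+O-IMDQ, DCs from mice given PBS, T cells from mice given X-Ray+O-IMDQ and T cells from mice given PBS. The series calls X-Ray+O-IMDQ a prodrug activated by radiotherapy. All groups shared the tumour model and the collection time, 72 h after the second treatment. X-rays and O-IMDQ were given together in the treated groups, so their contributions cannot be told apart. The labels used here give no mouse strain, age, number of pooled mice or sorting markers other than CD3.

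Interferon regulatory factors share an N-terminal DNA-binding domain that reads GAAA-type sites in the promoters of interferon genes and interferon-stimulated genes. Irf3 and Irf7 are activated by kinases downstream of nucleic acid sensors and switch on type I interferon genes, while Irf5 acts downstream of MyD88 on inflammatory cytokine genes. Irf9 joins STAT proteins in the complex ISGF3, which carries the signal from the type I interferon receptor to DNA. Irf1 is induced by interferons and activates genes of antigen presentation, and Irf2 can oppose it at the same sites. Irf4 and Irf8 bind DNA together with partners such as PU.1 and BATF and guide the development of DC subsets, B cells and effector T cells. IMDQ is known as an agonist of the endosomal receptors TLR7 and TLR8, which signal through MyD88 to Irf5 and Irf7.

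Each group had 1 library, so every comparison sets 1 library against another and not 1 condition against another, and no p-value is given. Total counts were 14056428 for treated DCs, 23797357 for PBS DCs, 18463944 for treated T cells and 18649824 for PBS T cells. All intervals are at the 95% level and cover counting error only, because without molecular identifiers several reads can come from 1 molecule. Higher or lower is used as a call for a TMM-scaled ratio of treated over PBS of at least 2-fold whose interval excludes no change. The DC libraries differed widely: of 7857 genes with at least 100 counts with PBS, 942 had 0 counts with treatment, and of 6476 genes with at least 100 counts with treatment, 213 had 0 with PBS. In T cells these were 342 of 8607 genes and 104 of 8220 genes. The median log2 ratio of all tested genes was -0.36 in DCs and -0.07 in T cells. Among all genes tested in DCs, 30.2% were called higher and 41.8% lower, and these shares stand beside each marker count that follows. Of 8 markers of conventional DCs, 3 were called higher, 4 lower and 1 neither in treated DCs. The lineage genes Zbtb46, at 0.477 FPKM in treated and 0.0445 FPKM in PBS DCs, and Flt3, at 0.795 and 0.109 FPKM, were low in both libraries and called higher. Itgax had 52.5 FPKM in treated and 34.8 FPKM in PBS DCs, and the 4 called lower were Cd74 and the class II genes H2-Ab1, H2-Aa and H2-Eb1, which macrophages and B cells also express. Of 12 macrophage markers, 0 were called higher, 7 lower and 5 neither in treated DCs, with a median log2 ratio of -1.40. Their summed level was 6148 CPM in treated DCs and 42477 CPM in PBS DCs, mostly from Lyz2, with 54737 and 836671 counts, while Adgre1 and Csf1r had log2 ratios of 0.27 and 0.25. Of 7 NK cell markers, the 3 with enough counts were called higher, Klrd1, Gzma and Eomes, and the 7 summed to 376 CPM in treated and 95.2 CPM in PBS DCs, with Ncr1 and Prf1 at 0 in both. Of 12 T cell markers, 8 had enough counts in DCs, where 4 were called higher, 3 lower and 1 neither. The 12 summed to 125 CPM in treated and 115 CPM in PBS DCs. Cd3d had 812 counts in treated and 434 in PBS DCs, while Cd3g had 1 and 576 and Lck 0 and 607. The part of these differences in the values below was not tested, and fewer cells of a type cannot be told apart from less RNA per cell.

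The promoters of 4 members are shown. Of these, Irf7 and Irf1 had the largest ratios in DCs, Irf8 differed between the cell types, and Irf2 changed least. Irf9 differed more between the cell types than Irf8 but is not shown. The members shown include all those with a match to the motifs below. The sequences run from 250 bases before to 50 bases after the gene start and come from RefSeq on build GRCm38.p6, an earlier build than the GRCm39 of the count tables. Capitals mark matches, on either strand, to the interferon-stimulated response element core GAAANNGAAA, the STAT site TTCNNNGAA, the composite PU.1-IRF site GGAANNGAAA and the kappaB site GGGNNTTTCC.
Irf7, chr7:141266375-141266674, minus strand: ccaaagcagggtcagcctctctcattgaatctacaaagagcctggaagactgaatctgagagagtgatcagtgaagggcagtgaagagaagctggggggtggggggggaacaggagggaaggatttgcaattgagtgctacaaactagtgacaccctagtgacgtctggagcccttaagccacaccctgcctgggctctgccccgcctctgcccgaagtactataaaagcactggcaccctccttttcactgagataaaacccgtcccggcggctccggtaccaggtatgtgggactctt
Irf1, chr11:53769764-53770063, plus strand: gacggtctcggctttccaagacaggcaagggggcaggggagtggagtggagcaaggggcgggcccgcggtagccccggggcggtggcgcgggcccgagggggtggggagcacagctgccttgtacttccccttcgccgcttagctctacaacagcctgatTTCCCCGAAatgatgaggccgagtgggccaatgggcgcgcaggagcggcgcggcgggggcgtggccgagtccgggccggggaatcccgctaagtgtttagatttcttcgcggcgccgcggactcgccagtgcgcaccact
Irf8, chr8:120736108-120736407, plus strand: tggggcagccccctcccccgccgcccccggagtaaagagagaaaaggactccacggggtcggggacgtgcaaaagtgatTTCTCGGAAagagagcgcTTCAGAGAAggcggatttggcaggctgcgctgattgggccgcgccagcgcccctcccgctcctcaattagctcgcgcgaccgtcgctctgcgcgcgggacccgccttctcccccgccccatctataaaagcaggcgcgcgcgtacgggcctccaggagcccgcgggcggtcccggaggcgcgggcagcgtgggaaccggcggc
Irf2, chr8:46739495-46739794, plus strand: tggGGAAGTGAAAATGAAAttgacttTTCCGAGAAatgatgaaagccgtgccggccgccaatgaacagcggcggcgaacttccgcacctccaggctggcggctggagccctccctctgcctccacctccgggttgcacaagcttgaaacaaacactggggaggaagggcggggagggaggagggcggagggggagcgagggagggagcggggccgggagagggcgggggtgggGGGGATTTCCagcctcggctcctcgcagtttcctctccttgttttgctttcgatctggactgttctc
The Irf1 window held 1 STAT site, beginning 90 bases before the start, and the Irf8 window held 2, beginning 171 and 153 bases before it. The Irf2 window held all 4 motifs, with the composite site and the response element core overlapping. The Irf7 window held none of them. Among the 32851 promoter windows of this length, 3.44% held the response element core, 8.30% the STAT site, 2.72% the composite site and 1.63% the kappaB site. The 8 genes have 11 windows in the table, and those of Irf3, Irf4, Irf5 and Irf9 and the other windows of Irf1 and Irf8 held no match. A match describes the letters and is not a measured binding site.

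In DCs, 4 of the 8 genes were called higher with treatment, Irf7, Irf1, Irf4 and Irf8, and 0 were called lower. Among all 10316 genes tested, 30.2% were called higher and 41.8% lower. All 8 members had at least 100 counts in both DC libraries, and among the 5498 genes with that depth 30.9% were called higher and 22.5% lower. The median log2 ratio of the 8 members was 0.99. In T cells, 3 of the 8 were called higher, Irf7, Irf5 and Irf9, and 0 lower, where 18.3% of 11058 tested genes were called higher and 25.4% lower. Among the 7369 genes with at least 100 counts in both T cell libraries, 12.0% were called higher and 10.7% lower. The median log2 ratio of the members in T cells was 0.64. With 8 genes in each count, these shares describe the members and are not a test. Irf7 was the member with the largest ratio in both cell types and the 1 member called higher in both.

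**Figure D1:**
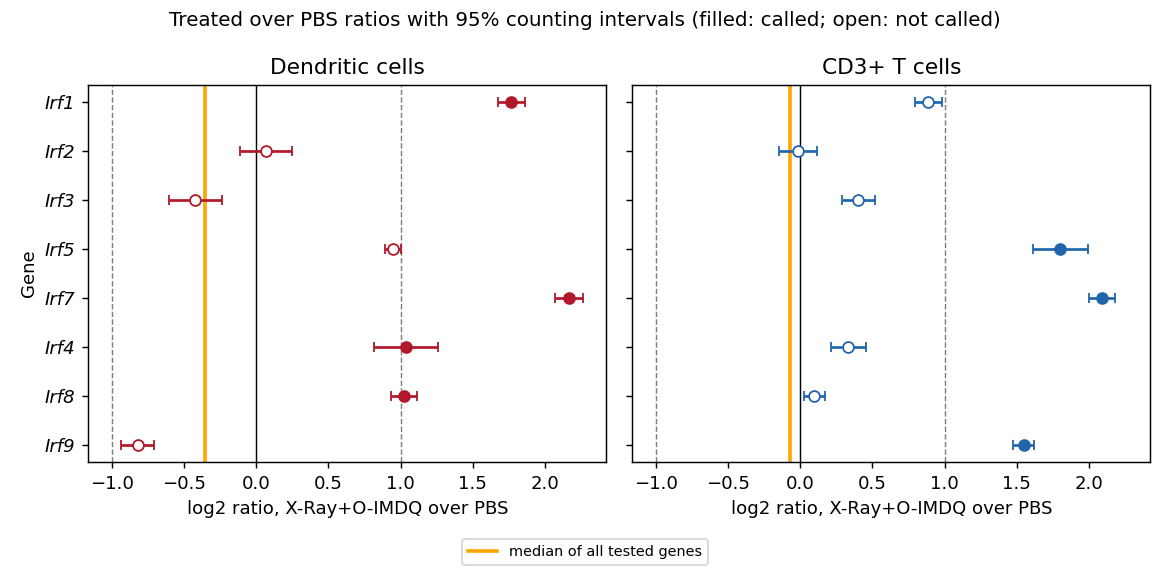
Log2 ratio of X-Ray+O-IMDQ over PBS (x axis) for each of 8 interferon regulatory factors (y axis) in dendritic cells (left) and CD3+ T cells (right), 1 library per group; bars are 95% counting intervals, filled points were called, open points were not, dashed lines mark 2-fold and the orange line the median of all tested genes. Irf7 lies near 2 in both panels, and Irf9 lies at -0.82 in DCs and at 1.55 in T cells.

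The factors that switch on interferon and inflammatory genes were read first. Irf7 (ENSMUSG00000025498, GRCm39 chromosome 7, 140842619 to 140846394, minus strand) had 3113 counts in treated DCs and 1223 in PBS DCs, or 58.7 FPKM (fragments per kilobase of gene, scaled to library size) and 13.6 FPKM. Its log2 ratio in DCs was 2.17, with an interval from 2.07 to 2.26, a 4.49-fold difference. In T cells Irf7 had 5228 counts with treatment and 1216 with PBS, or 75.0 and 17.3 FPKM. The log2 ratio in T cells was 2.09, with an interval from 2.001 to 2.18. The DC ratio minus the T cell ratio was 0.08, with an interval from -0.06 to 0.21 that includes 0. With this scaling the ratios could not be told apart beyond counting error. With the median of all tested genes set to 0 the difference was 0.36. The ratios then had intervals from 2.43 to 2.62 in DCs and from 2.07 to 2.25 in T cells, which do not overlap. In T cells Irf7 stood higher than 91.4% of tested genes by its ratio, and in DCs higher than 82.6%.

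Irf3 (ENSMUSG00000003184, chromosome 7, 44647072 to 44652272) is the constitutive partner of Irf7 in the response to nucleic acids. It had 357 counts in treated DCs and 843 in PBS DCs, or 7.38 and 10.3 FPKM. Its log2 ratio in DCs was -0.42 (interval -0.60 to -0.24). In T cells it had 1449 counts with treatment and 1087 with PBS, or 22.8 and 16.9 FPKM. Its log2 ratio in T cells was 0.40 (interval 0.29 to 0.52). Neither passed the 2-fold threshold. With the median of all tested genes set to 0 the DC ratio was -0.06 (interval -0.25 to 0.12), which includes 0. Over all alternatives the DC ratio ranged from -0.61 to -0.06. The balance between the pair differed more than Irf3 itself: the FPKM of Irf7 was 7.95 times that of Irf3 in treated DCs and 1.32 times in PBS DCs. In T cells it was 3.29 times that of Irf3 with treatment and 1.02 times with PBS, where the interval from 0.94 to 1.11 includes equal levels.

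Irf5 (ENSMUSG00000029771, chromosome 6, 29526624 to 29541870) was the most abundant of the 8 in both DC libraries. It had 5345 counts in treated DCs and 4891 in PBS DCs, or 131 and 70.7 FPKM. Its log2 ratio in DCs was 0.95 (interval 0.89 to 1.004) and missed the threshold. With the median of all tested genes set to 0 it was 1.30, which makes it a call. With the median of genes of the members' lengths and of at least 100 counts in both libraries set to 0, it was 0.76. That setting was chosen after seeing the data. In T cells Irf5 had 1035 counts with treatment and 294 with PBS, or 19.3 and 5.43 FPKM. The T cell log2 ratio was 1.80, with an interval from 1.61 to 1.99, a 3.49-fold difference. Irf5 was the lowest of the 8 in PBS T cells and sat between Irf3 and Irf4 in treated T cells. Because Irf5 is best known from myeloid and B cells, their markers were read in the same T cell libraries. The 12 macrophage markers summed to 853 CPM in treated and 924 CPM in PBS T cells, with 2 and 1 of them at 0. Of the 11 macrophage markers with enough counts, 1 was called higher, 4 lower and 6 neither: Fcgr1 had 341 counts with treatment and 7 with PBS, and Adgre1 had 0 with treatment and 334 with PBS. Among all genes tested in T cells, 18.3% were called higher and 25.4% lower. The 6 B cell markers summed to 7.40 CPM in treated and 6.55 CPM in PBS T cells, with Ms4a1 and Pax5 at 0 in both. Those B cell markers that were called also went both ways, with Cd79b at 137 counts with treatment and 10 with PBS, Fcrla at 0 and 75 and Ebf1 at 0 and 29. The part of these cells in the Irf5 value was not tested.

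**Figure D2:**
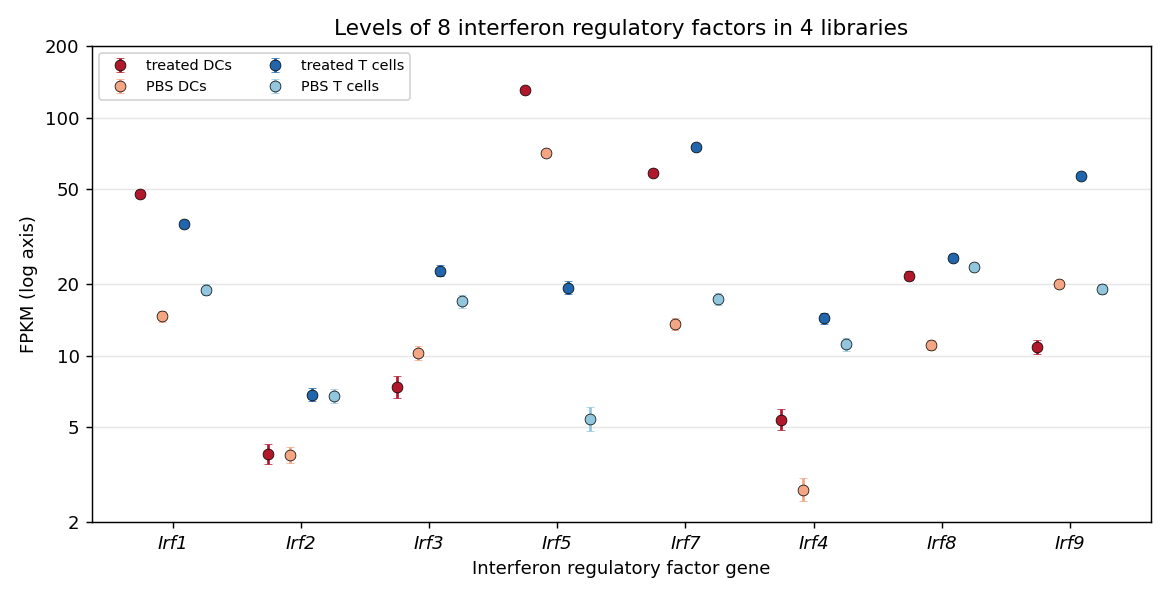
FPKM on a log axis (y axis) of each of 8 interferon regulatory factors (x axis) in treated DCs, PBS DCs, treated T cells and PBS T cells, 1 library each; bars are exact Poisson 95% intervals of the count. Irf5 reaches 131 FPKM in treated DCs and 5.43 FPKM in PBS T cells, while Irf2 stays between 3.85 and 6.86 FPKM in the 4 libraries.

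The signalling layer above these factors was read in the same libraries. Of 22 measured sensors, adaptors and kinases that lead to Irf3, Irf5 and Irf7, 10 were called higher, 6 lower and 6 neither in DCs, with a median log2 ratio of 0.63, where 30.2% of all tested genes were called higher and 41.8% lower. In T cells 7 were called higher, 4 lower and 9 neither of the 20 with enough counts, with a median of 0.54, beside 18.3% higher and 25.4% lower among all tested genes. Unc93b1, which carries endosomal TLRs to their compartment, had 472 counts in treated and 5110 in PBS DCs, a log2 ratio of -2.62. Myd88, the adaptor of TLR7, had 500 and 1808 counts in the same order, a log2 ratio of -1.04. The endosomal receptors went both ways in DCs. Tlr7 had 474 counts in treated and 142 in PBS DCs, a log2 ratio of 2.56, and Tlr3 had 267 and 175, both called higher. Tlr8 had 1 and 285 counts and Tlr9 had 8 and 281, both called lower. These receptors were named after their values were seen. Ikbkb, a kinase that acts on Irf5 and on NF-kB inhibitors, was 2.30-fold higher in treated DCs. In T cells Traf3, an adaptor that links sensors to the Irf3 kinases, had 1720 counts with treatment and 413 with PBS, a log2 ratio of 2.05. Ddx58, which encodes the RNA sensor RIG-I, had a log2 ratio of 1.46 in T cells. Chuk, which encodes the kinase IKK-alpha, had 272 counts in treated and 542 in PBS T cells, a log2 ratio of -1.01. In DCs Chuk went the other way, with 284 counts in treated and 11 in PBS DCs, a log2 ratio of 5.51. Traf3 and Ddx58 were called higher in DCs too, with log2 ratios of 2.58 and 1.91. These DC ratios were named after their values were seen.

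Transcripts of the listed interferons other than Ifng and Ifnk were at or near 0. Of 13 listed interferon genes, 11 had 0 counts in treated DCs, 12 had 0 in PBS DCs, and 12 had 0 in treated and in PBS T cells. Ifnb1 had 1 count in treated DCs and 0 in the other 3 libraries. Where no count was seen, up to 3 counts are still possible, which is 0.213 CPM in treated DCs, 0.126 CPM in PBS DCs, 0.162 CPM in treated T cells and 0.161 CPM in PBS T cells. Ifng, the type II interferon made by activated T and NK cells, had 185 counts in treated and 0 in PBS DCs and was called higher. With PBS DCs set to 3 counts the ratio of Ifng was 109-fold, and the lower interval limit was 6.45 in log2. It was abundant in T cells, with 245 FPKM in treated and 143 FPKM in PBS T cells, and its log2 ratio there, 0.75, was not called. Ifnk, a type I interferon known from keratinocytes, had 0 counts in treated and 45 in PBS DCs and was called lower. With treated DCs set to 3 counts it was 8.50-fold lower, and the upper interval limit was -2.73 in log2.

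Irf9 was the member whose ratios lay furthest apart between the cell types. Irf9 (ENSMUSG00000002325, chromosome 14, 55841028 to 55847487) had 823 counts in treated DCs and 2567 in PBS DCs, or 10.9 and 20.03 FPKM. Its log2 ratio in DCs was -0.82, with an interval from -0.94 to -0.71, which excludes 0 but did not reach 2-fold. With the median of all tested genes set to 0 it was -0.47 (interval -0.58 to -0.35). It was -1.01, past 2-fold, with the median of genes of the members' lengths and of at least 100 counts in both libraries set to 0, a setting chosen after seeing the data. In T cells it had 5657 counts with treatment and 1918 with PBS, or 56.9 and 19.1 FPKM. The T cell log2 ratio was 1.55, with an interval from 1.47 to 1.62, a 2.92-fold difference. The DC ratio minus the T cell ratio was -2.37, with a counting interval from -2.51 to -2.23. With 1 library per group this difference has no replicate check. The PBS libraries of DCs and T cells lay close, at 20.03 and 19.1 FPKM, and the treated libraries lay apart, on totals scaled separately in each library.

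Stat2, a partner of Irf9 in ISGF3, had ratios in the other order. Stat2 had 1012 counts in treated and 547 in PBS DCs, a log2 ratio of 1.71, and was called higher. In T cells Stat2 had 486 counts with treatment and 372 with PBS, a log2 ratio of 0.37 that was not called. Of 8 interferon receptor, kinase and STAT genes read, 2 were called higher and 3 lower in DCs, with a median of 0.28. Among all genes tested in DCs, 30.2% were called higher and 41.8% lower. In T cells 0 of the 8 were called, with a median of 0.42, beside 18.3% higher and 25.4% lower among all tested genes. The receptor chains Ifnar1, Ifnar2 and Ifngr1 were lower in treated DCs, with log2 ratios of -1.12, -1.96 and -2.82. Ifngr2 had a log2 ratio of 0.48 in DCs. The kinase gene Tyk2, which serves the type I receptor, had 646 counts in treated and 118 in PBS DCs, a log2 ratio of 3.27, while Jak1 and Jak2 had ratios of 0.08 and 0.66. In T cells the receptor chains had log2 ratios of 0.66 for Ifnar1, 0.52 for Ifnar2, 0.53 for Ifngr1 and 0.08 for Ifngr2. The T cell ratios of the kinases were 0.46 for Jak1, -0.0035 for Jak2 and 0.14 for Tyk2.

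**Figure D3:**
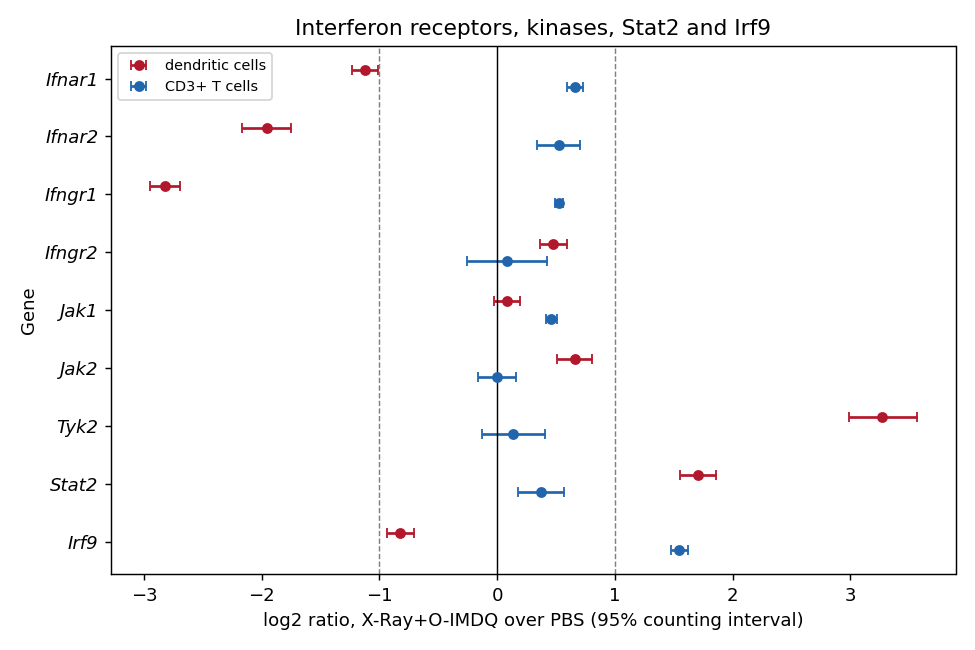
Log2 ratio of X-Ray+O-IMDQ over PBS (x axis) for interferon receptor chains, Janus kinases, Stat2 and Irf9 (y axis) in dendritic cells (red) and CD3+ T cells (blue), 1 library per group; bars are 95% counting intervals and dashed lines mark 2-fold. Stat2 lies at 1.71 in DCs with Irf9 at -0.82, and at 0.37 in T cells with Irf9 at 1.55.

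Irf1 and Irf2, which compete for the same sites, separated in both cell types. Irf1 (ENSMUSG00000018899, chromosome 11, 53660841 to 53669200) had 2670 counts in treated DCs and 1385 in PBS DCs, or 47.8 and 14.6 FPKM. Its log2 ratio in DCs was 1.77, with an interval from 1.67 to 1.86, a 3.40-fold difference. In T cells Irf1 had 2617 counts with treatment and 1402 with PBS, or 35.7 and 18.9 FPKM, and its log2 ratio of 0.89 (interval 0.79 to 0.98) was below the threshold. The DC ratio minus the T cell ratio was 0.88, with a counting interval from 0.74 to 1.013. Irf2 (ENSMUSG00000031627, chromosome 8, 47192767 to 47300493) had 402 counts in treated DCs and 677 in PBS DCs, which came to 3.87 and 3.85 FPKM. In T cells it had 937 counts in each library, at 6.86 FPKM with treatment and 6.79 FPKM with PBS. The log2 ratios of Irf2 were 0.07 in DCs and -0.01 in T cells, and both intervals include 0. The FPKM of Irf1 was 12.4 times that of Irf2 in treated DCs and 3.81 times in PBS DCs, and 5.20 times in treated T cells and 2.78 times in PBS T cells.

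A list of 25 genes known as targets of Irf1 or of ISGF3 was read beside these factors. In DCs 9 were called higher, 3 lower and 13 neither, with a median log2 ratio of 0.70, where 30.2% of all tested genes were called higher and 41.8% lower. In T cells 12 of the 24 with enough counts were called higher, 2 lower and 10 neither, with a median of 0.98, where 18.3% of all tested genes were called higher and 25.4% lower. B2m, the subunit shared by class I proteins, stood at a log2 ratio of 1.15 in DCs and -0.04 in T cells. Psmb10, an immunoproteasome subunit, had 4164 counts in treated and 18084 in PBS DCs and was called lower at -1.30. Cxcl10, a chemokine that draws T cells, was 2.83-fold higher in treated DCs. Nlrc5, the activator of class I genes, was higher in treated T cells at 1.05 and had a ratio of -0.57 in DCs. Isg15, a ubiquitin-like modifier, had 2121 counts in treated and 498 in PBS T cells, a log2 ratio of 2.08, and Ifit3, an antiviral protein, had 3759 and 405, a log2 ratio of 3.20. In DCs Isg15 had 413 and 1354 counts, a ratio of -0.89 that was not called. Of the other targets of ISGF3, 6 were called higher in DCs, with log2 ratios of 2.62 for Ifit1, 3.86 for Ifit2, 2.19 for Ifit3, 2.003 for Rsad2 and 1.47 for Oasl1, and with Mx1 at 779 counts in treated and 0 in PBS DCs, while Oasl2 and Usp18 were not called. These and the Isg15 ratio in DCs were named after their values were seen. Usp18, a brake on the type I receptor, had 1891 counts in treated and 84 in PBS T cells, a log2 ratio of 4.48. Of 8 genes read that restrain Irf or STAT activity, 3 were called higher and 1 lower in DCs and 2 higher and 0 lower in T cells. Trim21, a ubiquitin ligase for Irf proteins, had 340 counts in treated and 24 in PBS T cells, a log2 ratio of 3.81. Fbxw7, which marks proteins for degradation, had 1 count in treated and 381 in PBS DCs, a log2 ratio of -7.75 with a counting interval from -13.1 to -5.27. Trim28, a corepressor, had a log2 ratio of 1.69 in DCs. Ptpn2, a phosphatase that acts on Janus kinases and STATs, had 1641 counts in treated and 836 in PBS DCs, a log2 ratio of 1.79.

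Irf8 and Irf4, which shape DC subsets and effector T cells, passed the threshold narrowly in DCs. Irf8 (ENSMUSG00000041515, chromosome 8, 121463097 to 121483433) had 2153 counts in treated DCs and 1866 in PBS DCs, or 21.7 and 11.1 FPKM, with a log2 ratio of 1.03 and an interval from 0.94 to 1.12. Irf4 (ENSMUSG00000021356, chromosome 13, 30933209 to 30950959) had 372 counts in treated DCs and 320 in PBS DCs, or 5.40 and 2.74 FPKM, with a log2 ratio of 1.04 and an interval from 0.82 to 1.26. Both intervals reach below 1, and scaling by total counts gave 0.97 for Irf8 and 0.98 for Irf4, which ends both calls. In T cells Irf8 had 3365 counts with treatment and 3116 with PBS, or 25.8 and 23.7 FPKM, a log2 ratio of 0.10. Irf4 in T cells had 1302 counts with treatment and 1024 with PBS, or 14.4 and 11.2 FPKM, a log2 ratio of 0.33. The DC ratio minus the T cell ratio was 0.93 for Irf8, with a counting interval from 0.81 to 1.04, and 0.70 for Irf4, with one from 0.45 to 0.95.

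The level of Irf4 relative to Irf8 differed by less than counting error between the DC libraries. The FPKM of Irf4 was 0.249 times that of Irf8 in treated DCs and 0.247 times in PBS DCs, with overlapping intervals. In T cells it was 0.557 times with treatment and 0.473 times with PBS, where the intervals from 0.522 to 0.594 and from 0.440 to 0.508 do not overlap. Irf8 is also abundant in plasmacytoid DCs, whose markers were present in the T cell libraries. Siglech, a lectin of plasmacytoid DCs, had 7.25 FPKM in treated and 10.3 FPKM in PBS T cells, and the 8 markers summed to 417 and 306 CPM in the same order. Of the 8, 1 was called higher, Bst2, 4 were called lower, Ccr9, Tcf4, Klk1 and Cox6a2, and 3 neither, with a median log2 ratio of -1.12. Among all genes tested in T cells, 18.3% were called higher and 25.4% lower. The largest of the 8 was Bst2, itself interferon-inducible, with 359 FPKM in treated and 171 FPKM in PBS T cells. The part of these cells in the Irf8 level was not tested.

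Genes that depend on Irf8 or Irf4, or that bind DNA with them, were read beside the shares of all tested genes, 30.2% higher and 41.8% lower in DCs and 18.3% and 25.4% in T cells. Of 11 genes of Irf8-dependent conventional DCs of type 1, 6 were called higher, 2 lower and 3 neither in DCs, with a median log2 ratio of 1.13. Id2, a regulator of that lineage, had a ratio of 1.98 in DCs, Wdfy4, needed for cross-presentation, one of 1.32, and Ifi205 one of 1.13. Batf3, the DNA partner of Irf8 in that lineage, had 0 counts in treated and 479 in PBS DCs. It was named after its values were seen. Of 8 genes linked to Irf4-dependent DCs of type 2, 3 were called higher, 4 lower and 1 neither, with a median of -0.76. Mgl2, a lectin of that subset, had 6826 counts in treated and 67405 in PBS DCs, a log2 ratio of -2.48. Ccl17, a CCR4 ligand made by that subset, had a ratio of 3.51 and Sirpa, an inhibitory receptor on it, one of 1.74.

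Of 8 DNA partner genes, 7 had enough counts in DCs, where 2 were called higher, 2 lower and 3 neither, and 6 in T cells, where 0 were called higher, 2 lower and 4 neither. Spi1, which encodes PU.1, had 111 FPKM in treated and 124 FPKM in PBS DCs, a log2 ratio of -0.11 that was read after its values were seen. In T cells Spi1 had 204 counts with treatment and 421 with PBS, a log2 ratio of -1.06 that was called lower. Batf, the partner of Irf4, had 17 counts in treated and 895 in PBS DCs, a log2 ratio of -4.90, and 1919 and 2009 counts in T cells, a ratio of -0.08. Jun, an AP-1 subunit, had a log2 ratio of 3.42 in DCs, and Batf2, an interferon-inducible relative of Batf, one of 1.32. In T cells Batf2 went the other way, with 1 count with treatment and 216 with PBS, a log2 ratio of -7.77 with a counting interval from -13.1 to -5.27. Of 9 measured genes that act with or below Irf4 in T cells, 3 were called higher, 1 lower and 5 neither in T cells, with a median of 0.50. Prdm1, which encodes the effector regulator Blimp-1, had a log2 ratio of 1.45, Eomes, a T-box factor of killer cells, one of 1.15, and Tcf7, a factor of stem-like T cells, one of 1.34.

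Across the family, the order of the members by FPKM differed between libraries. In treated DCs the order from the highest was Irf5, Irf7, Irf1, Irf8, Irf9, Irf3, Irf4 and Irf2, and no neighbours had overlapping intervals. In PBS DCs it was Irf5, Irf9, Irf1, Irf7, Irf8, Irf3, Irf2 and Irf4, where Irf1 and Irf7, and Irf8 and Irf3, had overlapping intervals. In treated T cells it was Irf7, Irf9, Irf1, Irf8, Irf3, Irf5, Irf4 and Irf2, with no overlap between neighbours. In PBS T cells it was Irf8, Irf9, Irf1, Irf7, Irf3, Irf4, Irf2 and Irf5, and each neighbouring pair from Irf9 to Irf3 had overlapping intervals. Irf9 thus stood below the middle of the order in treated DCs and next to the top in the other 3 libraries.

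**Figure D4:**
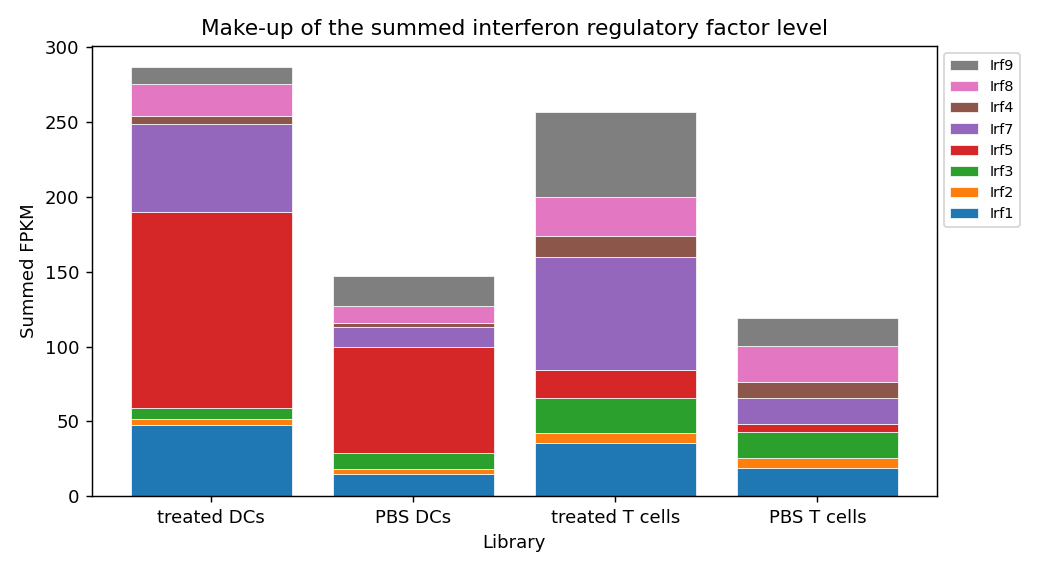
Summed FPKM (y axis) of the 8 interferon regulatory factors in each library (x axis), stacked by gene, 1 library per group and no error bars. The sums are 287 and 147 FPKM in treated and PBS DCs and 257 and 119 FPKM in treated and PBS T cells, with Irf5 the largest block in DCs and Irf7 and Irf9 the largest in treated T cells.

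The summed FPKM of the 8 genes was 287 in treated and 147 in PBS DCs, and 257 in treated and 119 in PBS T cells. Irf5 made up 45.7% of the sum in treated DCs and 48.1% in PBS DCs, against 7.52% in treated and 4.55% in PBS T cells. Irf7 made up 20.5% in treated and 9.26% in PBS DCs, and 29.2% in treated and 14.5% in PBS T cells. Irf9 made up 3.79% in treated and 13.6% in PBS DCs, and 22.2% in treated and 16.0% in PBS T cells. Among all genes with at least 20 counts in a library, Irf5 lay above 94.0% by FPKM in treated DCs and Irf7 above 90.5% in treated T cells.

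Genes with the most similar pattern over the 4 libraries were found from log2(FPKM + 1) profiles centred on their mean, among 6337 genes. The likeness is the Euclidean distance between profiles, where 0 is the same shape. The nearest to Irf7 were Ifit1, an antiviral RNA-binding protein, at a distance of 0.18 and Traf3 at 0.23. Ifit1 had 16.7 FPKM in treated and 2.83 FPKM in PBS DCs, and 21.4 and 3.76 FPKM in T cells in the same order. The nearest to Irf1 were Tet2 at 0.11 and Msl1 at 0.13, and the nearest to Irf8 were Sec11c at 0.045 and Coro2a at 0.075. The nearest to Irf9 were Gga3 at 0.23 and Tgs1 at 0.28, and to Irf5 Tamalin at 0.19 and Stab1, a scavenger receptor of macrophages, at 0.38. Irf2 lay nearest to Btf3 at 0.11 and Dctn6 at 0.12, Irf3 to Pprc1 at 0.040 and Erp44 at 0.063, and Irf4 to Ptms at 0.12 and Rcc2 at 0.15. Between members, Irf2 and Irf3 lay closest at 0.58 and Irf4 and Irf5 furthest apart at 4.67. With 4 libraries many genes share a shape, so these distances are a description.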

How the data were processed

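BGI prepared and sequenced mRNA libraries of tumour DCs and T cells, per the labels' protocols. The tools named, per the submitters' processing notes, are R 3.3.1, DESeq2 1.24.0, RSEM 1.2.12 and HISAT2 2.0.4, with build GRCm39 and no role for each. Each deposited table covers 1 cell type and, per the file headers, holds raw read counts per gene as whole numbers. Each also holds FPKM that the authors scaled by the listed gene length and each library's counted reads, and which equal that calculation within a relative difference of 2.04e-07. Of 21959 listed genes, 51 have no symbol and entered totals but no call.

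Columns were tied to samples through the read file names in the descriptions, although the titles number the PBS samples differently. The further library in each table matched no sample, so no label gives its group, and 4 columns were not used here. TMM scaling was applied to each table alone (edgeR 4.0.16, R 4.3.3). Log2 ratios of treated over PBS carry an exact conditional binomial (Clopper-Pearson) 95% interval, and FPKM an exact Poisson interval. Genes with at least 20 counts in either library were tested, and a library at 0 was set to 3 counts. Differences between the cell types' ratios carry the exact conditional interval of the odds ratio of the 4 counts. On simulated counts, 100% of genes changed 4-fold or 8-fold were recovered in each comparison, and 0.168% of unchanged genes in DCs and 0.184% in T cells were called. The simulated counts held counting error only. The changed genes had at least 20 counts expected in both libraries before the change, and no change near 2-fold was simulated. The recovery thus does not bear on members with ratios near 2-fold.

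The members and lists were chosen with earlier results of these data known. From each list of pathway genes, up to 3 of its called genes with the most counts were named in each cell type described, the DC subset lists in DCs and the Irf4 T cell list in T cells, with the receptors, kinases and STATs read, and the 2 genes nearest in pattern to each member. Others are said to be chosen after their values were seen, or stand beside a count as markers or pathway genes. Alternatives were other scalings (DESeq2 1.42.0 size factors, total counts, upper quartile, the deposited FPKM, TMM over 4 libraries, medians set to 0), other count minimums, log2(CPM + 1) and other fold thresholds. Some genes of the lists are not reported here and were left out of the list counts.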

Additional observations from a re-analysis of the deposited data

Results flagged for a closer look

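Irf9 was flagged because its log2 ratio was below 0 in DCs and above 0 in T cells, with intervals on either side of 0. Only its T cell ratio was called. The DC log2 ratio minus the T cell log2 ratio was -2.37. Irf3 was flagged for the same opposite signs at a smaller size, with a difference of -0.82 and neither ratio called. The size of the Irf3 ratio in DCs depends on the scaling, from -0.61 to -0.06 over the 13 alternatives, and its sign did not change. With the median of all tested genes set to 0 it was -0.06, with an interval from -0.25 to 0.12 that includes 0. Each direction rests on 1 library per group, so the differences were not tested.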

How the results depend on the processing

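Irf7 in both cell types kept its call and direction under all 13 alternatives, with log2 ratios from 1.98 to 2.52 in DCs and from 1.99 to 2.16 in T cells. Not all of these could differ: the count minimums leave the members' ratios and calls as they were, and the deposited FPKM repeats scaling by total counts. Irf9 in T cells ranged from 1.45 to 1.62 and Irf5 in T cells from 1.71 to 1.87, and each missed the 4-fold threshold only. In DCs the count of members called higher was 4; it was 2 with total counts or the deposited FPKM and 2 with the median of genes of the members' lengths set to 0, an alternative chosen after seeing the data. It was 3 with DESeq2 size factors or log2(CPM + 1), and 5 with a 1.5-fold threshold or the median of all tested genes set to 0. At a 4-fold threshold it was 1 in DCs and 1 in T cells. Irf4 ranged from 0.85 to 1.39, Irf8 from 0.84 to 1.38 and Irf9 from -1.01 to -0.47 in DCs. The count called lower in DCs was 1, Irf9, at a 1.5-fold threshold and with that length-matched median, where its ratio was -1.01. Over all genes, requiring 20 counts in both libraries left 1825 called lower in DCs, against 4317, and 1378 in T cells, against 2805. Genes with fewer than 20 counts in either library drop out, those at 0 included. The tested genes fell from 10316 to 6976 in DCs and from 11058 to 8953 in T cells. The same setting called 2298 higher in DCs and 1384 in T cells. A 4-fold threshold gave 1922 higher in DCs, and 1003 higher and 1774 lower in T cells. No paired analysis was possible because each group had 1 library. Each member had at least 294 counts in every library. The DC counting intervals of Irf4, from 0.82 to 1.26, Irf8, from 0.94 to 1.12, and Irf5, from 0.89 to 1.004, still reached both sides of 2-fold. The lack of replicates limited all members.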

Other observations

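Genes named for binding Irf2, and their relatives, were also read. Irf2bp2, a corepressor that binds Irf2, and its relative Irf2bpl were called higher in treated DCs, with log2 ratios of 2.17 and 2.91. In T cells Irf2bp2 had a ratio of -0.49 and Irf2bpl one of 0.22, and neither was called. Irf2bp1 had 286 counts in treated T cells and 2 in PBS T cells, a log2 ratio of 7.15 (counting interval 5.28 to 10.2), and 65 counts in treated DCs and 2 in PBS DCs, a ratio of 5.84 (counting interval 3.93 to 8.92). Irf2 itself had ratios of 0.07 in DCs and -0.01 in T cells.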
